A study of Mus musculus with 21 samples.

Results

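Oxidative phosphorylation was described here through 107 genes of 14679 that the deposited tables list, 94 of the nuclear genome and 13 of the mitochondrial genome. Members were chosen by symbol: genes starting with Nduf, Uqcr, Atp5 or Cox followed by a digit from 4 to 8, the genes Sdha, Sdhb, Sdhc, Sdhd, Cyc1 and Cycs, and the protein-coding genes of the mitochondrial genome (mt-Nd, mt-Co, mt-Cytb and mt-Atp). By role, the nuclear members were 39 complex I subunits, 8 complex I assembly factors named Ndufaf, 4 complex II subunits, 9 complex III subunits, 15 complex IV subunits (Ndufa4 among them), 18 complex V subunits and Cycs. The symbols also take in Ndufa12-ps and Ndufb4c, which are pseudogenes.

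The respiratory chain passes electrons from NADH and succinate through complexes I to IV to oxygen and pumps protons across the inner mitochondrial membrane, and complex V, the ATP synthase, uses the proton gradient to make ATP. Complexes I, III, IV and V are built from subunits of both genomes, whereas complex II and the mobile carrier cytochrome c are encoded in the nucleus alone. Mitochondrial messages are copied from both strands of a small circular DNA as long transcripts, which are then cut at the tRNAs that lie between most of them, and they carry short poly(A) tails.

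RNA was sequenced from Ba/F3 cells, an IL-3-dependent mouse pro-B cell line, that stably expressed JAK2-V617F, the JAK2 variant of myeloproliferative neoplasms, so that all groups carried it. Cells were kept for 6 h with 1 μM ruxolitinib, a type I inhibitor of JAK1 and JAK2 (Ruxo_treated), with 1 μM CHZ868, a type II JAK2 inhibitor (CHZ868_treated), or with DMSO (DMSO_treated). For washout, cells were exposed to inhibitor or DMSO for 1 h, washed 3 times in PBS and kept for 6 h without inhibitor (CHZ868_wash and Ruxo_wash, each with a DMSO group of its own, DMSO_wash_CHZ868 and DMSO_wash_ruxo). Each of the 7 groups had 3 libraries, and as nothing in the sources used here says that they came from separate cultures, p-values measure the spread between these samples, which may be technical. All values came from 1 cell line in bulk, in which fewer cells of a type and less RNA per cell cannot be told apart.

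Values are log2 CPM, read counts scaled to the size of each library, with a small constant added, and levels can be compared only within a table. The 15 libraries of 3 tables held 7880000 to 10670000 reads on listed genes, while the depth of the 6 ruxolitinib washout libraries is unknown. Replicate 2 of Ruxo_treated and replicate 3 of DMSO_wash_CHZ868 stood apart from their groups: the variance between replicates was 28.5 and 31.3 times sampling noise in the pairs with the former and 23.7 and 38.5 times in those with the latter, and 2.17 to 14.4 times elsewhere. Of 12 markers of pro-B and Ba/F3 cells, 6 were listed in every table (Csf2rb, Csf2rb2, Il3ra, Ptprc, Cd79a and Cd79b), with Csf2rb, the common chain of the IL-3 receptor, at a mean of 10.52 log2 CPM in the CHZ868 6 h table. Kit, Vpreb1, Igll1, Ebf1 and Pax5 were not listed, nor was any of 5 T cell markers, whereas Klf1 and Gata1 of 4 erythroid markers and Csf1r and Cd68 of 4 macrophage markers were listed in every table.

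After 6 h of CHZ868 the mitochondrial messages rose together, by 3.55-fold or more in the deposited values. The nuclear members were divided between rises, falls and genes that did not pass the test. All 11 mitochondrial members of the table were higher than in DMSO_treated cells (adjusted p under 0.05, limma, n = 3 and 3), with a median difference of 2.38 on the log2 scale. Of the 90 nuclear members listed, 39 were higher, 9 were lower and 42 did not pass the test, with a median difference of 0.15. Among all 11670 genes, 53.2% passed the test, 26.8% higher and 26.4% lower, and the median difference was -0.01. The share of nuclear members called, both directions together, was therefore close to that of all genes. The directions were not: 81.2% of the nuclear calls were higher, a split that depended on scaling, as given below. A high mitochondrial share also occurred without inhibitor, in DMSO_wash_CHZ868 replicate 3, as given with the shares per library.

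Several mitochondrial members share sequence with nuclear copies of the mitochondrial genome, which bears on what a read assigned to them counts. Of the 13 mitochondrial members, 11 had a near copy among annotated transcripts and 7 had one at 99% identity or more. The copy Gm28661 matches 681 of the 684 bases of mt-Co2 (chrM:7013-7696 in GRCm38, + strand, a single-exon protein-coding gene) and Gm13341 aligns with all 684 at 95.9% identity. A stretch of 60 bases (chrM:7208-7267 of GRCm38, + strand) is shown to let the 3 be compared, with capitals at bases that differ from mt-Co2.
mt-Co2: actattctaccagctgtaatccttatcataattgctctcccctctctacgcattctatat
Gm28661: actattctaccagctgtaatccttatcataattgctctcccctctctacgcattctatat
Gm13341: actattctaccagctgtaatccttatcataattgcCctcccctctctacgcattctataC
Gm28661 was identical to mt-Co2 over this stretch, and Gm13341 differed by T36C and T60C, with positions counted from 1 at the 5′ end of the stretch and the base of mt-Co2 given first. Gm10925 likewise matched 678 of the 681 bases of mt-Atp6 and Gm28437 matched 783 of the 784 bases of mt-Co3. Gm28439 matched 876 of the 1378 bases of mt-Nd4. For mt-Co1, Gm29216 aligned with 483 of the 1545 bases at 99.8% identity and Gm13340 with all 1545 at 97.6%. Reads of mt-Co1, mt-Co2, mt-Atp6, mt-Co3 and mt-Nd4 may therefore be divided between a member and its copy. No near copy of mt-Nd1 or mt-Atp8 was found, in a search of annotated transcripts for matches of at least 100 bases. However, the end of mt-Atp8 (chrM:7766-7969) overlaps the start of mt-Atp6 (chrM:7927-8607), which Gm10925 matches. Whether reads of mt-Atp8 are also shared with a copy was not tested.

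The complex I subunits of the mitochondrial genome form the membrane arm that pumps protons. The level of mt-Nd1 (chrM:2751-3707) was 9.91, 9.92 and 9.63 log2 CPM in the DMSO_treated libraries and 11.96, 11.96 and 12.61 in the CHZ868_treated libraries. The groups stood more than 2 log2 units apart, a difference of 2.36 (SE 0.13, 5.12-fold, adjusted p = 1.8208e-09). The level of mt-Nd2 was 9.56, 9.46 and 9.32 log2 CPM in DMSO_treated and 12.13, 12.03 and 12.54 in CHZ868_treated, a 6.90-fold difference (adjusted p = 1.8816e-11). For mt-Nd4 the levels were 9.32, 9.23 and 9.10 against 11.33, 11.34 and 11.69, and for mt-Nd5 they were 10.41, 10.32 and 10.02 against 12.26, 12.30 and 13.21, differences of 2.24 and 2.34 on the log2 scale. In each of these 4 genes CHZ868_treated replicate 3 was the highest library. The only member encoded on the light strand, mt-Nd6, behaved like the heavy-strand members, at 8.52, 8.38 and 8.16 log2 CPM in DMSO_treated and 10.58, 10.97 and 11.49 in CHZ868_treated, a difference of 2.66.

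Cytochrome b, the mitochondrially encoded core of complex III, followed the same course. Its gene mt-Cytb was at 10.35, 10.35 and 10.25 log2 CPM in DMSO_treated and at 12.64, 12.57 and 12.88 in CHZ868_treated, a difference of 2.38 with an SE of 0.075. Among the catalytic subunits of complex IV, mt-Co1 (chrM:5328-6872) took the most reads of all members in every library. Its level was 12.90, 12.96 and 12.97 log2 CPM in DMSO_treated and 14.73, 14.70 and 14.89 in CHZ868_treated. This was a 3.55-fold difference and the smallest of the 11 in the deposited values. The level of mt-Co2 was 4.49, 4.33 and 4.18 log2 CPM against 7.41, 6.69 and 6.46, and that of mt-Co3 was 4.46, 4.37 and 4.52 against 6.98, 6.33 and 5.90, differences of 2.52 and 1.95 on the log2 scale.

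The complex V subunits of the mitochondrial genome, which take part in the proton channel of the ATP synthase, had the largest differences with all libraries and the widest spread. The gene mt-Atp6 was at 4.16, 3.81 and 3.85 log2 CPM in DMSO_treated and at 8.04, 7.05 and 5.59 in CHZ868_treated, a difference of 2.95 (SE 0.38) that was 2.38 without CHZ868_treated replicate 1 and 3.61 without replicate 3. Without replicate 1 it was below that of mt-Nd2 (2.84) and mt-Nd6 (2.88). The neighbouring mt-Atp8, which overlaps it, had 10, 13 and 11 reads in the DMSO_treated libraries and 1023, 366 and 91 reads in the CHZ868_treated libraries. The groups did not overlap although the treated libraries, at 6.67, 5.61 and 3.53 log2 CPM, lay far apart, and the difference was 4.77 on the log2 scale (SE 0.52, adjusted p = 2.34e-06). It was 4.07 without CHZ868_treated replicate 1 and 5.64 without replicate 3. For mt-Co2, mt-Co3, mt-Atp6 and mt-Atp8 the highest library was CHZ868_treated replicate 1 and the lowest treated one was replicate 3, whereas replicate 3 was the highest for mt-Nd1, mt-Nd5 and mt-Nd6.

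**Figure D1:**
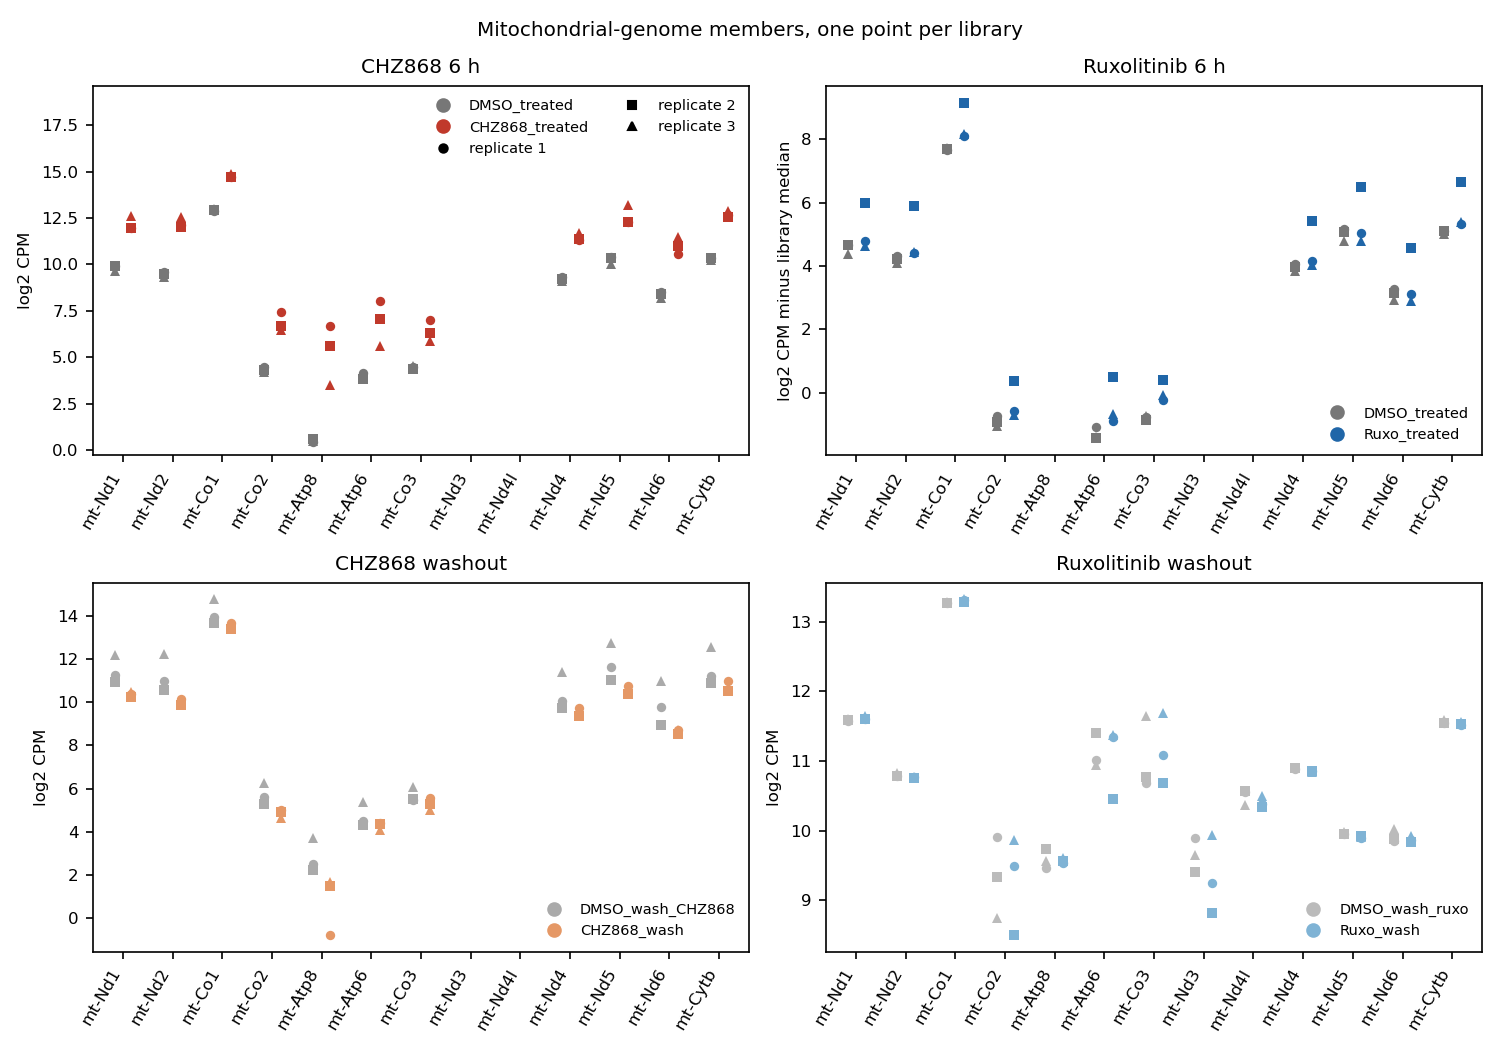
Level of each mitochondrial-genome member in every library, in the order of the genome, for the 4 comparisons. The vertical axis is log2 CPM, or log2 CPM minus the median of the library for ruxolitinib at 6 h, and its range differs between panels. Circles, squares and triangles are replicates 1, 2 and 3, and an empty position is a gene that the table does not list. All 11 members stand higher in CHZ868_treated, Ruxo_treated replicate 2 and DMSO_wash_CHZ868 replicate 3 stand above their groups, and the ruxolitinib washout groups lie within 0.32 log2 units of each other on average.

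The copies and the other mitochondrial RNAs were measured beside the members. Gm28661 was at 5.23, 4.99 and 4.84 log2 CPM in DMSO_treated and at 7.30, 6.56 and 6.81 in CHZ868_treated, and Gm10925 was at 6.82, 6.67 and 6.80 against 9.47, 8.66 and 8.32. Both copies stood above mt-Co2 and mt-Atp6 respectively in DMSO_treated libraries. With each member summed with its copies, all 11 members remained past the threshold. The differences were then 2.16 for mt-Co2, 2.22 for mt-Atp6, which is below those of mt-Nd2 and mt-Nd6, and 1.65 for mt-Co3. The last is below the 1.83 of mt-Co1 in the deposited values. Of the RNAs that make no protein, the ribosomal RNAs mt-Rnr1 and mt-Rnr2 rose 2.92-fold and 3.25-fold (adjusted p = 5.9827e-06 and 7.5671e-05), and the tRNA genes mt-Tp, mt-Tq and mt-Ty rose by 4.53-fold to 6.08-fold. In DMSO_treated libraries mt-Tq and mt-Ty were low, at 0.14 to 0.45 and 1.16 to 1.57 log2 CPM, so their fold changes rest on few reads. The tRNA gene mt-Ts1 was at 0.967 of its DMSO_treated level and did not pass the test (adjusted p = 0.889).

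The nuclear complex I subunits were divided in direction. Of 38 listed, 15 rose and 3 fell, with a median difference of 0.22. Ndufv3, a small subunit at the NADH-oxidising end of the complex, was at 5.11, 5.25 and 5.27 log2 CPM in DMSO_treated and at 6.46, 6.10 and 6.25 in CHZ868_treated, a 2.08-fold rise (SE 0.10 on the log2 scale, adjusted p = 5.856e-07). The core subunit next to it, Ndufv1, which binds NADH, fell by 0.51 on the log2 scale, from 7.12, 7.13 and 7.17 to 6.52, 6.70 and 6.67. Ndufs4 (chr13:114287795-114388258, - strand), an accessory subunit needed for a stable complex, fell by 0.73, from 5.40, 5.56 and 5.33 to 4.72, 4.90 and 4.49. Neither pair of groups overlapped. The largest difference carried a symbol of this group but no subunit: the pseudogene Ndufa12-ps was 3.18-fold higher, on 15 to 26 reads in DMSO_treated and 46 to 98 in CHZ868_treated libraries. Outside the naming rule, Ndufb10 (1.01), Ndufs6 (0.95), Ndufb8 (0.93), Ndufa11 (0.74), Ndufb7 (0.74), Ndufa10 (0.73) and Ndufa12 (0.70) also rose on the log2 scale, and Ndufs7 fell by 0.37.

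Of the 8 Ndufaf assembly factors, which help to build complex I and do not stay in it, 0 were higher past the threshold and 1 was lower. Ndufaf4 was at 4.93, 4.97 and 4.97 log2 CPM in DMSO_treated and at 4.53, 4.09 and 4.16 in CHZ868_treated, a fall by 0.70 (SE 0.14). Complex II, the succinate dehydrogenase of the citric acid cycle, had 3 of 4 subunits higher. Sdha, the flavoprotein, went from 8.14, 8.14 and 8.10 log2 CPM to 8.35, 8.34 and 8.57, a rise of 0.30. Sdhb, the iron-sulphur subunit, rose by 0.30 and Sdhd, a membrane anchor, by 0.25, while the other anchor Sdhc differed by 0.06 and did not pass the test.

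Complex III and cytochrome c changed in both directions. Of 9 listed subunits 3 rose and 2 fell. Uqcrb (chr13:66900617-66905378, - strand), a ubiquinone-binding subunit, had the largest rise among the nuclear subunits, from 5.05, 5.36 and 5.14 log2 CPM to 6.99, 6.85 and 6.52, a 3.04-fold difference (SE 0.12 on the log2 scale, adjusted p = 2.655e-08). It has 4 processed pseudogenes at 92.4 to 98.2% identity, none of which the table lists. Cyc1, the cytochrome c1 that hands electrons on, fell by 0.54, from 6.26, 6.28 and 6.38 to 5.65, 5.80 and 5.84. Uqcrc1, a core protein, rose by 0.15 and Uqcrq, a small subunit, fell by 0.28. Cycs itself was at 6.02, 6.17 and 6.16 log2 CPM against 6.48, 6.29 and 6.32, a rise of 0.24 (adjusted p = 0.0215). It has a copy, Gm10053, at 99.9% identity, so its reads are uncertain.

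Complex IV had 4 subunits higher and 1 lower of 12. Cox7c rose by 0.70, from 4.70, 5.08 and 4.83 log2 CPM to 5.64, 5.80 and 5.29. It has a copy, Gm10012, at 99.6% identity over 233 of 709 bases, so its reads are uncertain. Ndufa4, now counted with complex IV, rose by 0.52, from 5.92, 6.00 and 5.99 to 6.59, 6.57 and 6.32. Cox7a2l, which links complex III and complex IV in supercomplexes, fell by 0.41. Of the subunits with tissue isoforms, the ubiquitous Cox6a1 rose by 0.34 and Cox6c, which has no such isoform, by 0.36, while Cox4i1 (0.07), Cox6b1 (-0.15), Cox7a2 (-0.14) and Cox8a (0.04) did not pass the test. The muscle isoforms Cox6a2 and Cox7a1 and the lung isoform Cox4i2 were not listed in this table. The ruxolitinib washout table lists each of them, and the CHZ868 washout table lists Cox6a2, at 42 to 67 reads. Cox6a2 differed from its DMSO group by 0.47 after ruxolitinib washout and by -0.21 after CHZ868 washout, and did not pass the test in either.

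Of the 18 nuclear members of complex V, 13 rose and 2 fell, with a median difference of 0.29. Atp5mk, a small subunit that takes part in dimers of the enzyme, went from 4.21, 4.96 and 4.65 log2 CPM to 6.25, 5.95 and 5.45, a 2.42-fold rise. Atp5if1, which inhibits ATP hydrolysis when the proton gradient fails, went from 5.40, 5.54 and 5.56 to 6.80, 6.55 and 6.31, a 2.08-fold rise. The subunit c ring is encoded by 3 genes with the same mature protein. Of these Atp5mc2 fell by 0.63, from 6.83, 7.05 and 6.92 to 6.30, 6.28 and 6.33, whereas Atp5mc1 (0.19) and Atp5mc3 (-0.24) did not pass the test. Outside the naming rule, Atp5f1e, a subunit of the central stalk, fell by 0.47 with groups that overlapped. It had 220, 375 and 284 reads in DMSO_treated and 230, 204 and 135 in CHZ868_treated.

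**Figure D2:**
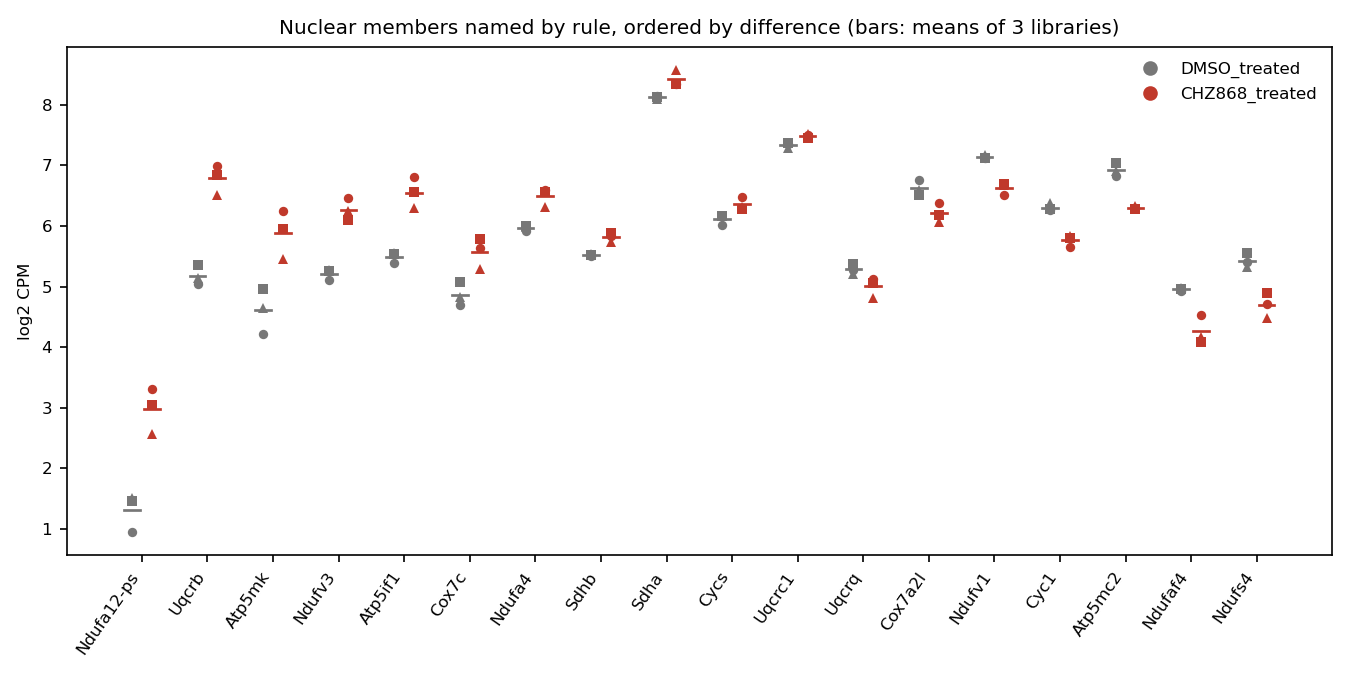
Level in log2 CPM of the 18 nuclear members named by rule in each DMSO_treated and CHZ868_treated library, ordered by the difference. Circles, squares and triangles are replicates 1, 2 and 3 and bars are means of 3 libraries. The differences run from 1.67 for Ndufa12-ps to -0.73 for Ndufs4, and the groups do not overlap in any of them.

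The split between rises and falls among nuclear members depended on scaling. When CPM was rescaled without the mitochondrial genes, 28 nuclear members were higher and 14 lower, so that 66.7% of the calls were higher instead of 81.2%, and the median of all genes moved to -0.10. Cycs, Uqcrc1, Sdhb and Sdhd then did not pass the test (adjusted p = 0.129, 0.417, 0.0548 and 0.091). Some small differences rested on single libraries. Cycs did not pass without DMSO_treated replicate 1 or CHZ868_treated replicate 1 (adjusted p = 0.108 and 0.0682), Sdhd without DMSO_treated replicate 3 or CHZ868_treated replicate 2 (0.0539 and 0.0555), Cox6c without DMSO_treated replicate 3 or CHZ868_treated replicate 1 or 2 (0.0522 to 0.0702), and Uqcrc1 and Uqcrq when any of 5 libraries was left out (0.0576 to 0.18). The nuclear members had short transcripts, with a median of 1106 bases against 2828 over all genes, and with the trend on GC content and length removed 35 were higher and 12 lower.

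Promoters of the nuclear members were searched for 3 motifs of factors known to bind respiratory genes, in windows from 250 bases before to 50 bases after the gene start that RefSeq gives for GRCm38.p6, on both strands. A promoter was found for 75 of the 94 nuclear members. The NRF1 motif (GCGCA, any base, then GCGC) was in 19 of the 75 promoters (25.3%), against 11.4% of the 8450 promoters of genes listed in the CHZ868 6 h table and 4.78% of all 27025. It was in 12 of 33 promoters of members that rose, in 2 of 7 that fell and in 5 of 34 that did not pass the test, while 1 promoter belonged to a member that this table does not list. Stretches of 100 bases are shown for a member that rose and for one that fell, with matches in capitals.
Sdha: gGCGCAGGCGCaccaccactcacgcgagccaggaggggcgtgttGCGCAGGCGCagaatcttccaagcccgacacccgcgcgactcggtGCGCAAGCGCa
Ndufaf4: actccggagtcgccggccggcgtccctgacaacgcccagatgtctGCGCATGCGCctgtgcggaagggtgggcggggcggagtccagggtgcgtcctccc
The stretch of Sdha (chr13:74350240-74350339, - strand) held 3 matches, at -98, -55 and -10 from the start, and that of Ndufaf4 (chr4:24897925-24898024, + strand) held 1 at -113. The YY1 motif AAGATGGC was in 10 of 75 (13.3%, against 5.29% of promoters of listed genes) and the ETS motif CCGGAAGT, bound by GABP, in 5 of 75 (6.67%, against 9.66%). A match describes these letters and no binding was measured.

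Genes outside the members that serve the respiratory chain were counted in lists, to be read beside the 26.8% of all genes that were higher and the 26.4% that were lower. Of 15 genes of mitochondrial DNA transcription and replication, 2 rose and 3 fell (median -0.20). Tfam, which packages the DNA and opens its promoters, fell by 0.28, Polrmt, the RNA polymerase, by 0.27 and Polg, the DNA polymerase, by 0.62, while the transcription factor Tfb2m rose by 0.42 and Mterf3 by 0.33. Of 20 genes of mitochondrial RNA processing and stability 4 rose and 4 fell (median -0.07), with Rexo2, an oligoribonuclease, up by 1.07, Grsf1, an RNA-binding protein of mitochondrial RNA granules, up by 0.54 and Fastkd5 down by 0.82. Of 9 nuclear regulators of respiratory genes 3 rose and 3 fell (median -0.17). Esrra, a nuclear receptor that drives respiratory genes, fell by 1.19, from 5.45, 5.46 and 5.32 log2 CPM to 4.28, 4.40 and 3.97, and Pprc1, a coactivator of the PGC-1 family, fell by 0.80. Among the factors whose motifs were searched, Yy1 rose by 0.42, the GABP subunits Gabpb1 and Gabpa rose by 0.33 and 0.30, Gabpb2 fell by 0.22 and Nrf1 (-0.17) did not pass the test.

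Other assembly factors and the citric acid cycle enzymes that feed the chain were counted in the same way. Among 8 complex I assembly factors of other names 1 rose and 4 fell (median -0.33), led by Foxred1 (-1.10), Timmdc1 (-0.89) and Nubpl (-0.71). Among 32 assembly factors of complexes II to V 4 rose and 6 fell (median -0.17), with Sdhaf3 at -1.02, Coa4 at 0.79 and Atpaf2 at 0.70. Of 14 citric acid cycle enzymes 8 rose and 2 fell (median 0.24). Idh3g, a regulatory subunit of the NAD-dependent isocitrate dehydrogenase, went from between 6.97 and 7.03 log2 CPM to between 8.08 and 8.11, a 2.14-fold rise, and Idh3b and Sucla2 rose by 0.52 and 0.66 on the log2 scale.

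**Figure D3:**
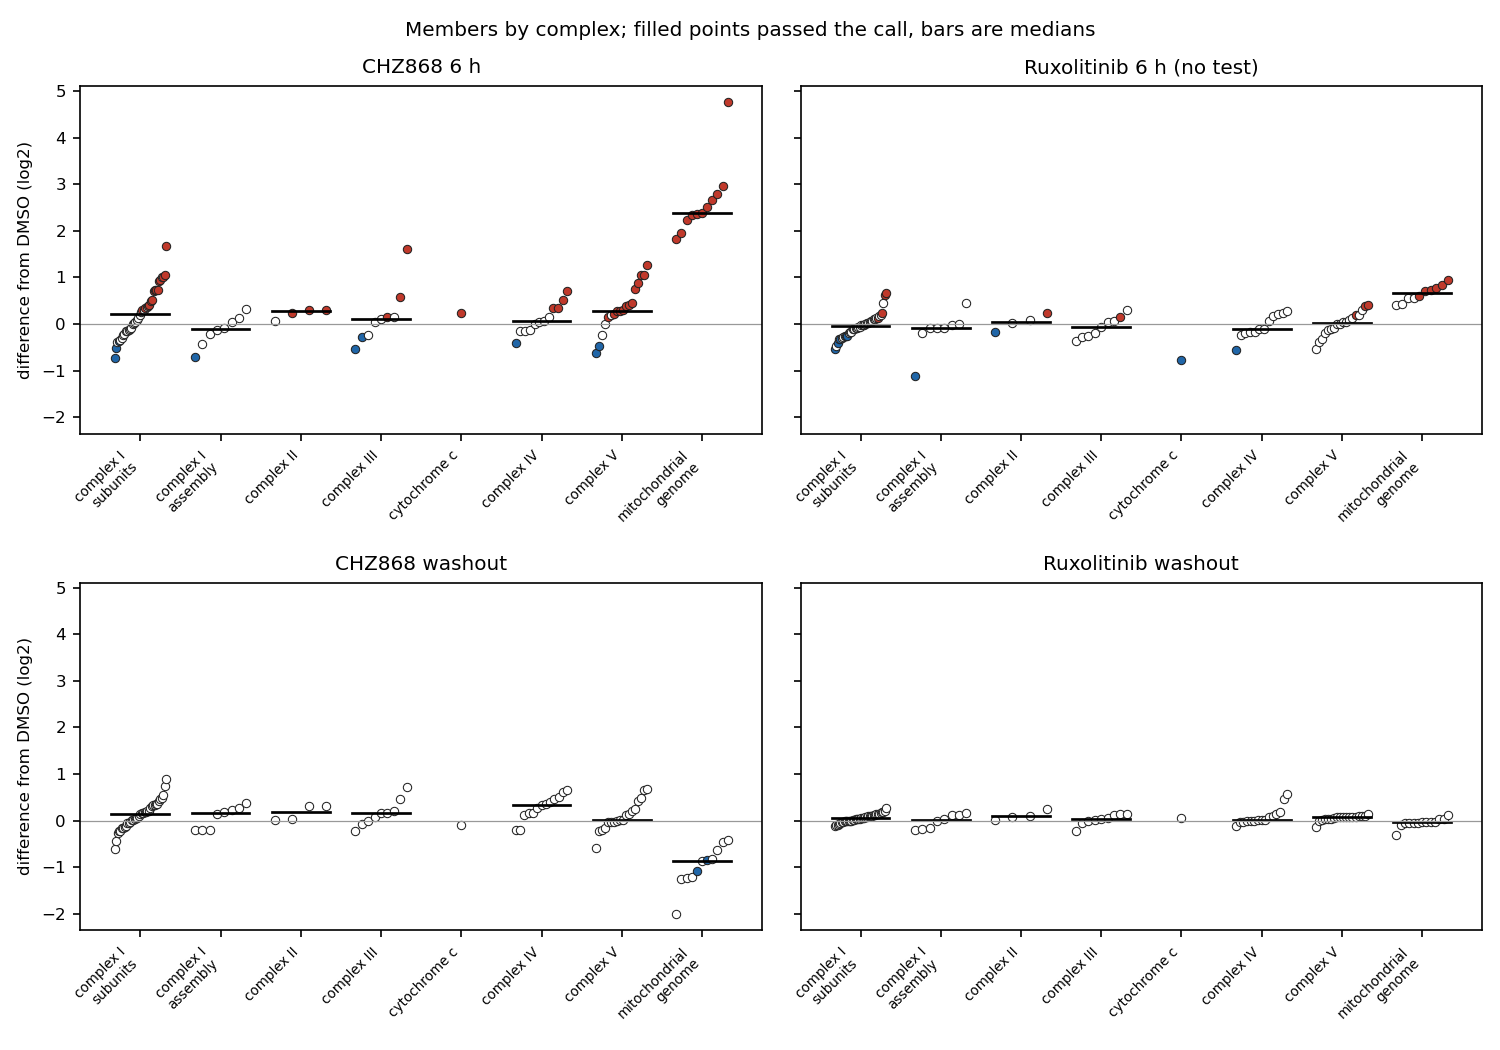
Difference from the DMSO group of the comparison, on the log2 scale, for each member by complex. Filled points passed the test at an adjusted p of 0.05 or, for ruxolitinib at 6 h, where no test was run, had groups that did not overlap. Bars are medians. The mitochondrial-genome members lie at a median of 2.38 with CHZ868 for 6 h, 0.66 with ruxolitinib for 6 h, -0.87 after CHZ868 washout and -0.04 after ruxolitinib washout.

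The Ruxo_treated libraries are in a table of their own, so the median over the 11624 genes found in both tables was subtracted from each library and no test was run. They were set against the same DMSO_treated libraries as CHZ868_treated. All 10 mitochondrial members listed were above DMSO_treated on average, by a median of 0.66, and in 6 of them (mt-Nd2, mt-Co1, mt-Co2, mt-Atp6, mt-Co3 and mt-Cytb) the groups did not overlap. Of 90 nuclear members, 9 were higher and 9 lower with no overlap, and the median was -0.04. Over all shared genes the groups did not overlap in 44.6%, 24.6% higher and 20.1% lower.

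The mitochondrial differences at 6 h of ruxolitinib rested in large part on replicate 2. The centred level of mt-Co1 was 8.10, 9.15 and 8.16 in Ruxo_treated replicates 1, 2 and 3 and 7.66, 7.70 and 7.73 in DMSO_treated, a difference of 0.77 that was 0.43 without replicate 2. For mt-Nd5 the centred levels were 5.04, 6.49 and 4.80 against 5.17, 5.07 and 4.77, a difference of 0.44 that was -0.08 without replicate 2. Across the 10 members replicate 2 was 0.54 to 1.57 log2 units above the mean of replicates 1 and 3. Without it the mitochondrial median was 0.24 with 6 of 10 members higher without overlap, mt-Nd5 and mt-Nd6 were below DMSO_treated, and 22 nuclear members were higher and 9 lower with no overlap (57.2% of all genes, 31.6% higher and 25.7% lower).

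Among nuclear members, Ndufaf4 and Cycs were lowest relative to DMSO_treated. The centred level of Ndufaf4 was -1.25, -1.39 and -1.57 in Ruxo_treated and -0.31, -0.29 and -0.27 in DMSO_treated, a difference of -1.11, beside -0.70 with CHZ868. The centred level of Cycs was -0.08, 0.20 and 0.15 against 0.78, 0.92 and 0.92, a difference of -0.78, beside 0.24 with CHZ868. Both differences were of the same size without replicate 2 (-1.12 and -0.84). Ndufv3 (0.62), Atp5if1 (0.38) and Sdha (0.23) were higher without overlap, Ndufs4 (-0.41) and Sdhb (-0.17) were lower without overlap, and the groups overlapped for Uqcrb (0.30), Atp5mk (0.12), Atp5mc2 (-0.12) and Cyc1 (-0.25). Replicate 2 was 0.75 below the mean of the other 2 libraries for Atp5mc2 and 0.68 below it for Cyc1. The difference of Ndufs4 also rested in large part on replicate 2: Ndufs4 had 369, 227 and 384 reads in Ruxo_treated replicates 1, 2 and 3.

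The share of all listed CPM that the 2 genomes took gives the same picture per library. The mitochondrial members took 1.38, 1.39 and 1.34% in DMSO_treated, 4.88, 4.86 and 6.22% in CHZ868_treated and 1.66, 3.48 and 1.70% in Ruxo_treated. The nuclear members took 0.713, 0.740 and 0.715% in DMSO_treated, 0.761, 0.779 and 0.699% in CHZ868_treated and 0.743, 0.595 and 0.760% in Ruxo_treated. The log2 ratio of mitochondrial to nuclear members was 1.91 higher in CHZ868_treated than in DMSO_treated, and 0.71 higher in Ruxo_treated, or 0.24 without its replicate 2. In the libraries highest in mitochondrial members, CHZ868_treated replicate 3 and Ruxo_treated replicate 2, the nuclear share was the lowest of its group. The same held without inhibitor in DMSO_wash_CHZ868 replicate 3, with 5.26% mitochondrial and 0.609% nuclear. In that library Uqcrb had 589 reads, against 460 and 391 in replicates 1 and 2, and Cyc1 had 532, against 871 and 939. Both lay in the direction seen with CHZ868, whereas Ndufaf4 (418, against 467 and 401) was not clearly lower. The other members were not compared in this way, and a shared cause was not tested.

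**Figure D4:**
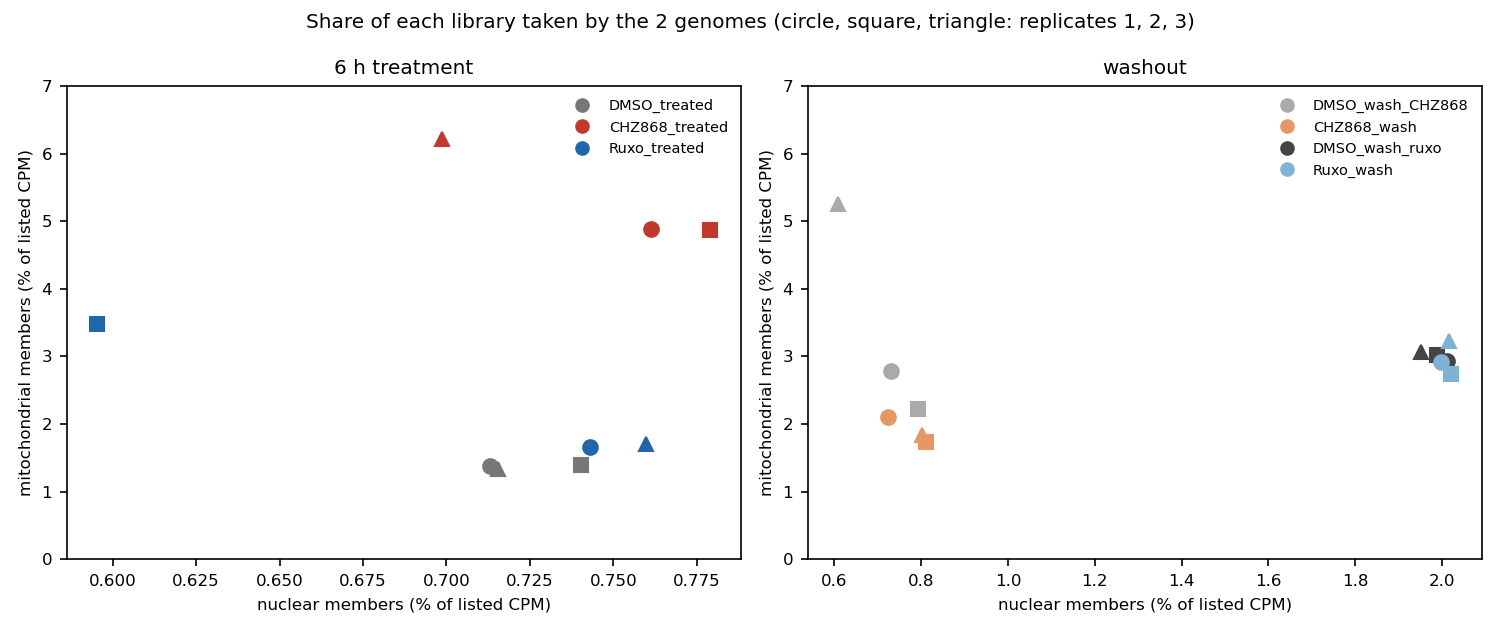
Share of listed CPM taken by mitochondrial members (vertical axis) and by nuclear members (horizontal axis), both in percent, with 1 point per library for the 6 h groups and for the washout groups. Circles, squares and triangles are replicates 1, 2 and 3. CHZ868_treated libraries lie between 4.86 and 6.22% on the vertical axis, DMSO_treated ones between 1.34 and 1.39%, and DMSO_wash_CHZ868 replicate 3, at 5.26%, lies apart from its group. The table of the ruxolitinib washout is on a scale of its own.

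After CHZ868 washout the mitochondrial members lay on the other side of their DMSO group. All 11 were below DMSO_wash_CHZ868 on average, with a median of -0.87, and mt-Nd1 and mt-Co2 passed the test, against 4.02% of all 11355 genes (1.96% higher and 2.07% lower). The level of mt-Nd1 was 10.40, 10.27 and 10.49 log2 CPM in CHZ868_wash and 11.26, 10.95 and 12.20 in DMSO_wash_CHZ868, a fall by 1.08 (adjusted p = 0.0427). The level of mt-Co2 was 5.03, 4.92 and 4.65 against 5.62, 5.28 and 6.25, a fall by 0.85 (adjusted p = 0.0499). In both genes the groups did not overlap and DMSO_wash_CHZ868 replicate 3 was the highest library.

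The other mitochondrial members were lower on average but did not pass the test. The differences were -1.23 for mt-Nd2 (adjusted p = 0.0564), -1.26 for mt-Nd6 (adjusted p = 0.0777), -1.22 for mt-Nd5, -0.87 for mt-Nd4, -0.83 for mt-Cytb, -0.62 for mt-Co1, -0.45 for mt-Atp6 and -0.42 for mt-Co3. For mt-Atp8 the libraries held 3, 24 and 27 reads in CHZ868_wash and 54, 42 and 107 in DMSO_wash_CHZ868. The ribosomal RNAs fell, mt-Rnr1 to 0.525 and mt-Rnr2 to 0.422 of the DMSO_wash_CHZ868 level (adjusted p = 0.0316 and 0.022). The mitochondrial members took 2.11, 1.73 and 1.84% of listed CPM in CHZ868_wash and 2.79, 2.22 and 5.26% in DMSO_wash_CHZ868. Without DMSO_wash_CHZ868 replicate 3 the median was -0.58 and 6 mitochondrial members were lower past the threshold, without its replicate 2 there were 9, and without any 1 of the other 4 libraries there were 0, the adjusted p of mt-Nd1 and mt-Co2 then being 0.133 to 0.18.

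No nuclear member passed the test after CHZ868 washout (0 of 90 by limma, 30 at an unadjusted p under 0.05, of which 26 were higher). At the unadjusted threshold 24.4% of all genes passed, 11.8% higher. The largest differences were in Ndufb3 (0.90, adjusted p = 0.0538), Ndufs4 (0.73, adjusted p = 0.0671), Uqcrh (0.73), Atp5mc3 (0.67, adjusted p = 0.055), Atp5f1e (0.66) and Cox7b (0.66). Ndufs4 was at 5.45, 5.54 and 5.55 log2 CPM in CHZ868_wash and at 4.92, 5.21 and 4.23 in DMSO_wash_CHZ868, where replicate 3 was the lowest. Uqcrb (-0.01), Atp5mk (-0.01), Ndufv3 (-0.14), Atp5if1 (-0.19) and Cycs (-0.09) did not pass the test. The nuclear median was 0.15, and 0.02 without DMSO_wash_CHZ868 replicate 3, when 7 members were higher and 2 lower past the threshold. Without its replicate 2, 16 nuclear members passed. Of the related genes, Idh3g (-0.45) and Atpaf2 (-0.59) fell past the threshold.

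The effects of CHZ868 during 6 h of treatment and after washout differed for every mitochondrial member that both tables list. In a fit of 12 libraries all 11 had a higher 6 h effect (adjusted p under 0.05, limma), by a median of 3.41 on the log2 scale, against 47.1% of all 11175 genes that passed, 23.2% higher and 23.8% lower. The difference of effects was 3.44 for mt-Nd1 (95% interval 2.76 to 4.12) and 2.45 for mt-Co1 (1.83 to 3.06). Of 89 nuclear members, 25 had a higher and 17 a lower 6 h effect. With CPM rescaled without mitochondrial genes these were 18 and 23, so that the direction of the split turned, and without DMSO_wash_CHZ868 replicate 2 they were 22 and 23. Uqcrb had a 6 h effect of 1.60 and a washout effect of -0.01, while Ndufs4 had -0.73 and 0.73, a difference of -1.46 (SE 0.26, adjusted p = 2.2533e-04). The 2 experiments were run with separate DMSO groups and are in separate tables. The duration of exposure, the removal of the inhibitor for 6 h and the experiment therefore cannot be told apart.

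After ruxolitinib washout no member moved past the threshold: 0 of 93 nuclear and 0 of 13 mitochondrial members by limma, against 0.0229% of all 13085 genes. At an unadjusted p under 0.05 these were 8 and 3, against 7.03% of all genes. The medians were 0.06 and -0.04. Levels of mt-Nd1 were 11.61, 11.60 and 11.65 log2 CPM in Ruxo_wash and 11.58, 11.59 and 11.60 in DMSO_wash_ruxo, a difference of 0.03 (95% interval -0.01 to 0.08). For mt-Co1 they were 13.31, 13.29 and 13.32 against 13.27, 13.27 and 13.28, a difference of 0.03. The replicates of these genes lay close together, whereas those of mt-Co2 spread from 8.51 to 9.87 in Ruxo_wash and from 8.75 to 9.92 in DMSO_wash_ruxo. The copy Gm28661 was at 13.03 to 13.14 log2 CPM in these libraries, far above mt-Co2, whereas in the CHZ868 washout table Gm28661 was at 5.28 to 6.73 and mt-Co2 at 4.65 to 6.25. The differences between the washout effects of mt-Co2 therefore set side by side tables in which the member and its copy stand at unlike levels, and the part of this was not tested. With members summed with their copies, 0 mitochondrial members passed after ruxolitinib washout.

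The mitochondrial members mt-Nd3 and mt-Nd4l, which the other tables do not list, were measured in this one. The level of mt-Nd3 was 9.25, 8.82 and 9.94 log2 CPM in Ruxo_wash and 9.89, 9.41 and 9.66 in DMSO_wash_ruxo, and mt-Nd4l was at 10.39, 10.35 and 10.50 against 10.55, 10.58 and 10.37. Both have a copy at 99% identity or more. Among nuclear members the smallest p was that of Cox5a, at 8.85, 8.83 and 8.87 log2 CPM against 8.76, 8.69 and 8.69, a difference of 0.14 (unadjusted p = 0.00276 in limma). Uqcrb (0.15), Ndufs4 (0.00) and Cycs (0.06) were close to their DMSO group. Between the washout effects of ruxolitinib and CHZ868, no member differed past the threshold (0 of 89 nuclear and 0 of 11 mitochondrial by limma, 17 and 6 at an unadjusted p under 0.05), against 1.89% of all 10097 genes, or 18.8% at the unadjusted threshold. The median difference of the mitochondrial members, ruxolitinib minus CHZ868, was 0.82.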

How the data were processed

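Libraries were prepared from Trizol-extracted RNA with a strand-specific mRNA kit, and the study names BMK GmbH as the company that did the RNA-seq. The authors deposited log2 CPM values in 4 tables, after a filter on low expression and TMM normalization. The study's methods name kallisto, GRCm38, edgeR, voom and limma, whereas the submitters' processing notes list STAR 2.7.3a, GRCm39 and edgeR 4.0.16, and the 2 sources were not reconciled here. All low values of 3 tables (100%) came out as whole reads (tolerance 0.1 read), which gave the depth. The ruxolitinib washout table did not, so its depth is unknown.

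Groups within a table were compared with limma-trend (limma 3.58.1, R 4.3.3), p-values being adjusted by Benjamini-Hochberg across each whole table and called below 0.05. The 2 differences of effects were fitted on 12 libraries each. Ruxo_treated was set against DMSO_treated after median centring, without a test. The fits were tested on simulated data. Older symbols were matched through RefSeq synonyms, and those of Atp5mk, Atp5mj and Atp5if1 through aliases written by hand. Near copies shared at least 90% identity over at least 100 bases (blastn 2.17.0, GENCODE transcripts of GRCm38). Named genes were all mitochondrial members, the 2 largest rises and falls per complex with CHZ868 at 6 h among those past the threshold without overlap, members past the threshold after washout, isoform families, and up to 3 genes per related list with the largest changes. Others are stated to be outside this rule or are given for their size. Members, lists and tests were chosen with earlier results of these data known. Alternatives were other limma settings, scalings, filters and offsets, a GC content and length correction, a replicate block, stricter thresholds and leaving out each library. Summing members with their copies was added after seeing the data. Comparisons computed by the authors were not used. Precision rests on 3 libraries per group.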

Additional observations from a re-analysis of the deposited data

Results flagged for a closer look

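The effect of CHZ868 during 6 h of treatment differed from its effect after washout by a test of the difference itself, over 12 libraries, for 11 mitochondrial members and 42 nuclear members. Given as the 6 h effect minus the washout effect on the log2 scale, the differences among mitochondrial members were 6.79 for mt-Atp8, 4.01 for mt-Nd2, 3.92 for mt-Nd6, 3.56 for mt-Nd5, 3.44 for mt-Nd1, 3.41 for mt-Atp6, 3.37 for mt-Co2, 3.21 for mt-Cytb, 3.11 for mt-Nd4, 2.45 for mt-Co1 and 2.37 for mt-Co3. Among the nuclear members named, the 6 h effect was the higher one for Ndufa12-ps (2.28), Uqcrb (1.61), Atp5mk (1.28), Atp5if1 (1.25), Ndufv3 (1.20), Ndufa4 (0.40), Uqcrc1 (0.37) and Cycs (0.33). It was the lower one for Ndufs4 (-1.46), Cox7a2l (-0.91), Ndufaf4 (-0.89), Atp5mc2 (-0.87), Ndufv1 (-0.87) and Cyc1 (-0.71). The experiment, the duration of exposure and the removal of the inhibitor cannot be told apart in these differences. The sizes rest in part on DMSO_wash_CHZ868 replicate 3, which stood apart. It had 38912 reads of mt-Nd1, against 24130 and 18690 in replicates 1 and 2, and 153 of Ndufs4, against 295 and 348. Without it all 11 mitochondrial members still had a higher 6 h effect past the threshold, and 26 nuclear members had a higher and 14 a lower one. With 3 libraries in each group, no library was tested for standing apart within its group.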

How the results depend on the processing

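Under other settings, 135 values of counts and totals stayed close to the value reported and 17 moved. The median difference of nuclear members, close to 0, changed sign for the 6 h effect minus the washout effect (0.01, down to -0.11 with CPM rescaled without mitochondrial genes) and for ruxolitinib at 6 h (-0.04, and 0.04 without Ruxo_treated replicate 2). The log2 ratio of the 2 genomes, checked after seeing the data, differed by 0.24 without Ruxo_treated replicate 2 instead of 0.71, and after CHZ868 washout by -0.43 without DMSO_wash_CHZ868 replicate 3 instead of -0.90. The split of nuclear members between higher and lower 6 h than washout effects turned from 25 and 17 to 18 and 23 with CPM rescaled without mitochondrial genes, and to 22 and 23 without DMSO_wash_CHZ868 replicate 2. With CHZ868 for 6 h, 19 nuclear members passed at a log2 fold change of at least 0.58 instead of 48, and the log2 ratio of the 2 genomes differed by 2.25 without mt-Co1 instead of 1.91. After CHZ868 washout the count of mitochondrial members, 2 in the report, was 0 without the trend and at an adjusted p under 0.01, 1 with vooma weights, robust estimation, the filter at a mean of 3, log2(CPM + 5) or copies summed (added after seeing the data), and 4 with quantile normalization. The count of nuclear members, 0 in the report, was 1 with quantile normalization and 1 with CPM rescaled without mitochondrial genes. For the 6 h effect minus the washout effect, 25 nuclear members passed at an adjusted p under 0.01 instead of 42. The cause of these moves was not tested, apart from the stricter thresholds, which call fewer genes by construction.

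Same-numbered replicates did not deviate together over all genes (correlations -0.05 to 0.05), so no block was used in the main fits. Such correlations, from 3 libraries per group, cannot exclude that the numbers pair the libraries. With a replicate block, 38 nuclear members were higher and 10 lower and 11 mitochondrial members were higher with CHZ868 for 6 h, 7 nuclear and 6 mitochondrial members passed after CHZ868 washout (5 and 10 with the GC content and length trend removed as well), and 0 and 0 passed after ruxolitinib washout.

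Leaving out 1 library at a time gave 34 to 53 nuclear and 11 to 11 mitochondrial members past the threshold with CHZ868 for 6 h (lowest without DMSO_treated replicate 3, highest without CHZ868_treated replicate 3), 0 to 16 and 0 to 9 after CHZ868 washout, 0 to 0 for both after ruxolitinib washout, 32 to 45 and 11 to 11 for the 6 h effect minus the washout effect, and 0 to 7 and 0 to 5 between the washout effects. For ruxolitinib at 6 h, 25 to 31 nuclear and 6 to 8 mitochondrial members did not overlap, against 18 and 6 with all libraries, since fewer libraries overlap less often.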
